A study of Mus musculus with 15 samples.

Results

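The 10 genes described here encode the secreted and cell-surface part of TGF-beta signalling: the ligands Tgfb1, Tgfb2 and Tgfb3, the receptors Tgfbr1, Tgfbr2 and Tgfbr3, and the latent TGF-beta binding proteins (LTBPs) Ltbp1, Ltbp2, Ltbp3 and Ltbp4. They were chosen by name, as 10 of the 56980 genes in a table of TPM, a measure of transcript level scaled for gene length and to the same total in every library. The table holds bulk RNA-seq of tibialis anterior (TA) muscle and of heart, 1 library per mouse, from mice of the DBA/2J-mdx genotype, which lack dystrophin on the DBA/2 background. Mice were given vehicle or the senolytic pair dasatinib and quercetin (D + Q) 2 times per week. TA was taken from 4 vehicle-treated and 4 D + Q-treated mice that started at 3 months of age, were treated for 2 months and were 5 months old at collection. Hearts came from 4 vehicle-treated and 3 D + Q-treated mice that started at 12 months, were treated for 4 months and were 16 months old at collection. By label, both vehicle groups held 2 males and 2 females, all 4 D + Q-treated TA mice were male, and the D + Q-treated hearts came from 2 females and 1 male. All groups carried the mdx genotype and no wild-type mouse was sequenced, so every comparison is within dystrophic mice.

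TGF-beta is secreted in a latent form. Each ligand is made as a precursor whose propeptide stays wrapped around the mature cytokine, and this complex is bound by an LTBP, which tethers it to fibrillin and fibronectin fibres in the matrix. Integrins, proteases and thrombospondin release the cytokine, which then binds the signalling receptors Tgfbr2 and Tgfbr1 with the help of the co-receptor betaglycan (Tgfbr3), and the signal passes through SMAD proteins to genes of the extracellular matrix. In dystrophic muscle this pathway is best known as a driver of fibrosis, and Ltbp4 was identified as a modifier of muscular dystrophy in mice, with the DBA/2 form of its proline-rich region described as more readily cut by proteases. Ltbp2 differs from its relatives in that it is not known to bind latent TGF-beta.

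All 10 are protein-coding genes, placed here on GRCm39. Of the ligand genes, Tgfb1 (ENSMUSG00000002603) spans chr7:25386390-25404506 (plus strand), Tgfb2 (ENSMUSG00000039239) chr1:186354985-186438294 (minus strand) and Tgfb3 (ENSMUSG00000021253) chr12:86102756-86126301 (minus strand). Of the receptor genes, Tgfbr1 (ENSMUSG00000007613) spans chr4:47353134-47414931 (plus strand), Tgfbr2 (ENSMUSG00000032440) chr9:115913361-116004800 (minus strand) and Tgfbr3 (ENSMUSG00000029287) chr5:107249402-107437623 (minus strand). Of the LTBP genes, Ltbp1 (ENSMUSG00000001870) spans chr17:75312519-75699507 (plus strand), Ltbp2 (ENSMUSG00000002020) chr12:84829986-84923306 (minus strand), Ltbp3 (ENSMUSG00000024940) chr19:5790932-5808669 (plus strand) and Ltbp4 (ENSMUSG00000040488) chr7:27004086-27037117 (minus strand).

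The labelled tissues carried their own markers. The summed TPM of 6 skeletal muscle genes was 40359 to 51606 in TA and 1330 to 1783 in heart, and that of 6 cardiac muscle genes was 14510 to 18927 in heart and 51.8 to 116 in TA. In 1 mouse the label went against the sex-linked transcripts: D + Q-treated heart replicate 3 was labelled male, but Xist stood at 47.2 TPM and none of 4 Y-linked genes passed 0.0279 TPM. Heart results are therefore also given without it. Heart libraries also differed in atrial transcripts. The summed TPM of Myl7, Myl4, Sln and Nppa was 862, 4260, 2204 and 1083 in vehicle-treated hearts 1 to 4 and between 382 and 427 in the 3 D + Q-treated hearts, with no overlap and with Sln under 0.5 TPM in all 3. The depth behind the TPM values is unknown, so all precision given is the spread between mice. In bulk tissue, fewer cells of a type and less RNA per cell cannot be told apart.

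The ligands differ in the stretch through which integrins open the latent complex. Codons of the integrin-binding motif RGD are printed in capitals in the coding strand of Tgfb1 and Tgfb3, and beside them stand, also in capitals, the codons of Tgfb2 that align with them and do not spell RGD. They are shown because Tgfb2 and Tgfb3, the ligands with the most negative change in D + Q-treated hearts, differ here. All are from the reference genome GRCm39.
Tgfb1 (transcript Tgfb1-201, exons 4 and 5 with the intron left out, chr7:25396420-25396593, plus strand): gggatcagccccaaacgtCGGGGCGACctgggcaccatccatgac
Tgfb3 (transcript Tgfb3-201, exon 5, chr12:86108921-86108965, minus strand): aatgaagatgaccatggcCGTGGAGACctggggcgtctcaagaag
Tgfb2 (transcript Tgfb2-201, exon 5, chr1:186362932-186362976, minus strand): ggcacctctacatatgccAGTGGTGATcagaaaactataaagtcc
Over the whole coding sequences the RGD motif was found 1 time in Tgfb1 (390 codons), 1 time in Tgfb3 (412 codons) and 0 times in Tgfb2 (414 codons).

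Ltbp4 had the highest mean TPM of the 10 genes in every group. Its proline-rich exon is shown because the strain difference of this protein concerns a proline-rich region. Of the coding exons of transcript Ltbp4-202, exon 9 had the highest share of proline codons, 32 of 83 or 38.6%, against 13.03% over the coding sequence. Proline codons are in capitals. The letters are those of the reference genome, which is of another strain, and TPM does not show which allele a library carried.
Ltbp4 exon 9 (GRCm39, chr7:27026687-27026935, minus strand): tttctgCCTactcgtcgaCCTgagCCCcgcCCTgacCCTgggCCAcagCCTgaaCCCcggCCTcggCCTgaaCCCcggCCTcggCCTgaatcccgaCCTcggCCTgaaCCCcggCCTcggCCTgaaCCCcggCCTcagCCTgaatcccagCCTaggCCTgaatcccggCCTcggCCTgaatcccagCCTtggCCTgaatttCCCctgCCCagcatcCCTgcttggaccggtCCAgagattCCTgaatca

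All 10 genes were above the filter of 0.5 TPM in at least 3 mice in every comparison, and all 15 libraries had each of them above that value. Since TPM is per length, levels of different genes can be compared within a group. In vehicle-treated TA the order of mean TPM was Ltbp4 (53.1 ± 10.8, SD), Tgfb3 (27.2 ± 4.01), Ltbp3 (27.1 ± 4.77), Tgfbr2 (27.0 ± 3.02), Tgfbr3 (22.3 ± 2.43), Tgfb1 (20.7 ± 4.28), Tgfb2 (17.3 ± 2.19), Tgfbr1 (17.2 ± 1.28), Ltbp1 (7.80 ± 1.09) and Ltbp2 (2.08 ± 0.791). Ltbp4 lay above all others without overlap and Ltbp1 and Ltbp2 lay below all others without overlap, while each neighbouring pair from Tgfb3 to Tgfbr1 overlapped. In vehicle-treated heart the order was Ltbp4 (81.2 ± 12.9), Tgfbr3 (22.7 ± 2.80), Tgfb1 (19.2 ± 0.854), Tgfbr2 (18.8 ± 2.19), Ltbp3 (16.6 ± 2.08), Ltbp1 (15.8 ± 0.707), Tgfb3 (13.9 ± 2.87), Tgfb2 (10.04 ± 2.02), Tgfbr1 (7.17 ± 0.971) and Ltbp2 (3.76 ± 1.56). There too Ltbp4 was apart at the top and Ltbp2 at the bottom, and each neighbouring pair between them overlapped. With D + Q, Ltbp4 remained first and Ltbp2 last by mean in both tissues, at 39.02 and 2.14 TPM in TA and 66.8 and 1.40 TPM in heart. In D + Q-treated TA, Ltbp4 (24.2 to 48.0 TPM) overlapped Tgfb3 (24.7 to 27.5 TPM), so only its mean set it first. In D + Q-treated heart it was again apart at the top.

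**Figure D1:**
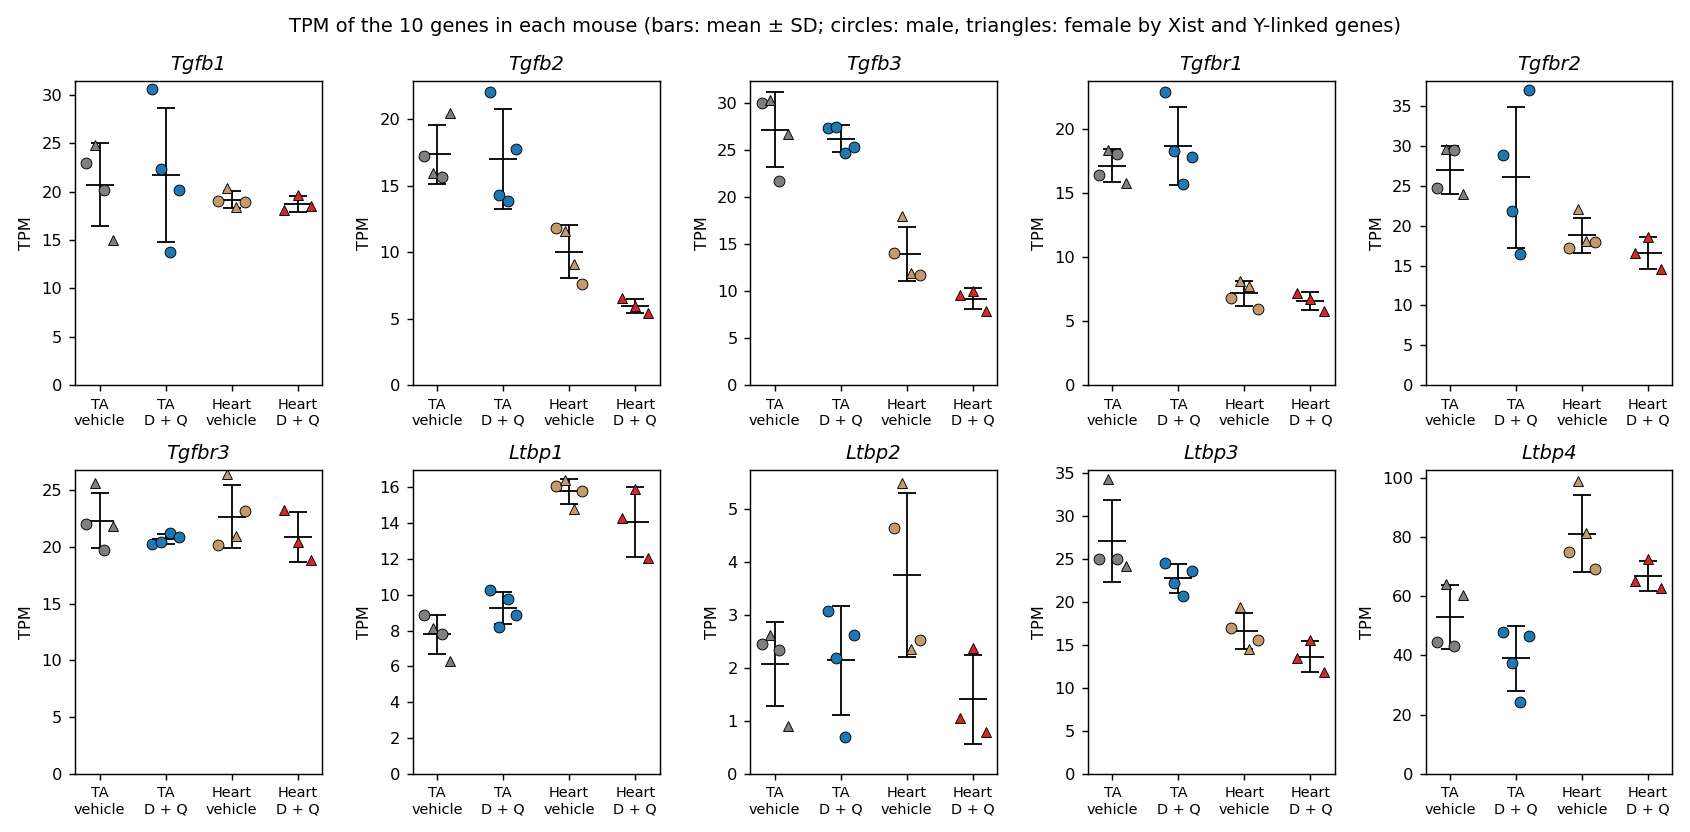
TPM of each of the 10 genes (vertical axes, each starting at 0) in every mouse, by tissue and treatment, with bars for the mean and SD of each group of 3 or 4 mice; circles are male and triangles female by Xist and Y-linked genes. Ltbp4 lies between 24.2 and 99.1 TPM, the heart values of Tgfb2, Tgfb3 and Tgfbr1 lie below all TA values, and Tgfb2 and Tgfb3 of the D + Q-treated hearts lie below those of the vehicle-treated hearts.

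The balance within each class differed between tissues. Tgfb3 made up 41.5% ± 2.51 (SD, n = 4) of the summed ligand TPM in vehicle-treated TA and 32.1% ± 2.62 (SD, n = 4) in vehicle-treated heart, where Tgfb1 was the main ligand with 44.8% ± 3.87. In D + Q-treated hearts the share of Tgfb1 was 52.8 to 58.2%, above the 40.9 to 49.4% of vehicle-treated hearts, although its own TPM was 18.1 to 19.7 against 18.4 to 20.4. Among the receptors, Tgfbr1 had 25.9% ± 0.786 of the summed TPM in vehicle-treated TA and 14.8% ± 1.63 in vehicle-treated heart. Of the summed LTBP TPM, Ltbp4 held 58.7% ± 5.07 in vehicle-treated TA and 69.1% ± 2.65 in vehicle-treated heart, and Ltbp3 held 30.2% ± 2.57 and 14.2% ± 1.09. The share of Ltbp1 among the LTBPs was 10.9 to 17.6% in D + Q-treated TA and 6.87 to 10.99% in vehicle-treated TA, which overlapped. These shares are descriptions with no test.

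**Figure D2:**
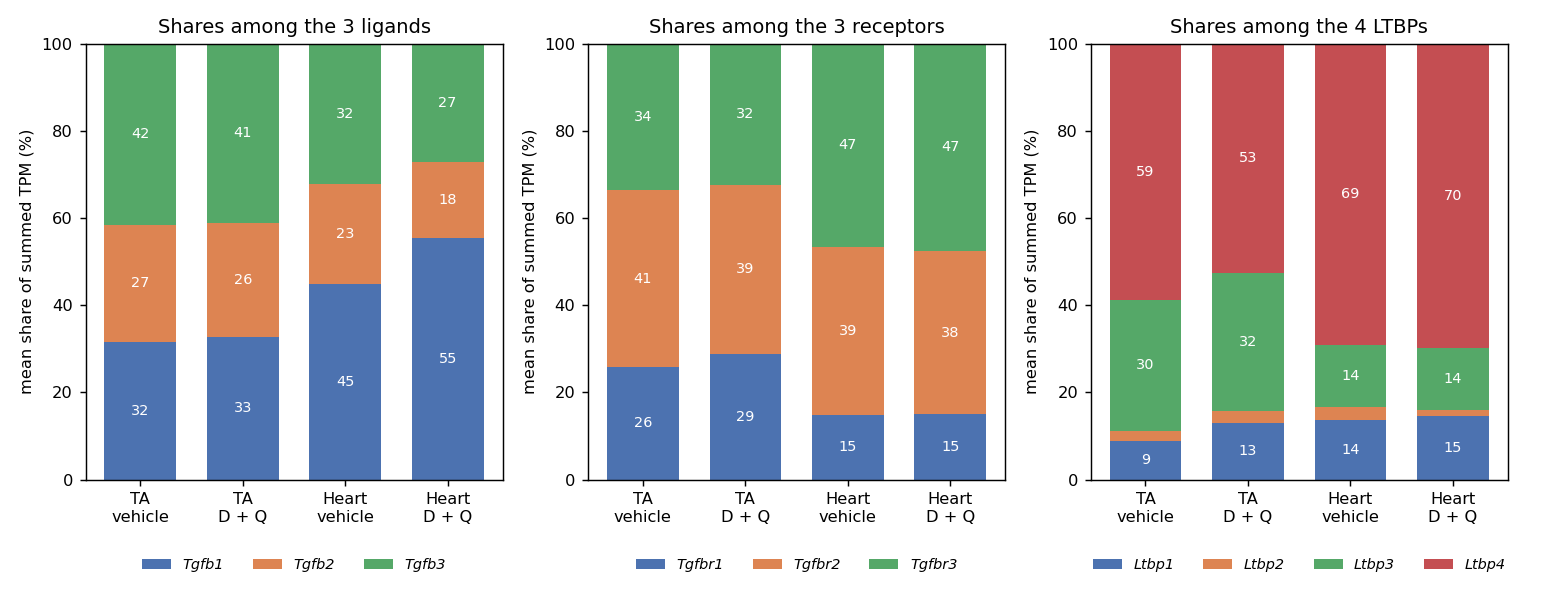
Mean share of each gene in the summed TPM of its class (vertical axes, percent; stacked bars that add to 100) in the 4 groups, for the 3 ligands, the 3 receptors and the 4 LTBPs. Tgfb1 has the largest ligand share in both heart groups and Tgfb3 in both TA groups, and Ltbp4 has over 50% of the LTBP TPM in every group.

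The first comparison asked whether D + Q altered these genes in TA of young mice. The test was limma, run on log2(TPM + 0.5) and including 1 surrogate variable. A gene was called when its Benjamini-Hochberg adjusted p-value lay under 0.05 and its log2 fold change was beyond 0.5 in either direction. None of the 10 genes was called, and with the same rule 0 of 16298 genes (0%) were called in either direction. The study, which tested counts with DESeq2 at the same thresholds, reported genes changed in both directions in TA. The lack of calls here is that of this fit on TPM. By limma, 1 member had an unadjusted p-value under 0.05 with a negative change and 0 with a positive one, against 2.36% and 0.638% of all genes tested. No member had groups that did not overlap, where 0.264% of all genes lay entirely higher and 1.25% entirely lower with D + Q. Of the 10 fitted log2 fold changes 8 were negative, with a median of -0.11 beside -0.07 over all genes.

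For every ligand and receptor the D + Q-treated and vehicle-treated TA values overlapped. The fitted log2 fold changes of the ligands were -0.10 for Tgfb1 (95% interval -0.53 to 0.33), -0.11 for Tgfb2 (-0.47 to 0.25) and -0.02 for Tgfb3 (-0.34 to 0.29). Those of the receptors were 0.04 for Tgfbr1 (-0.24 to 0.32), -0.23 for Tgfbr2 (-0.63 to 0.17) and -0.08 for Tgfbr3 (-0.36 to 0.20). D + Q-treated TA replicate 1 was the highest of the 8 TA mice for Tgfb1 (30.6 TPM), Tgfb2 (22.0 TPM) and Tgfbr1 (22.9 TPM), and replicate 3 of the same group was the lowest for Tgfb1 (13.8 TPM), Tgfbr1 (15.7 TPM) and Tgfbr2 (16.5 TPM). These 2 mice also had the highest and the lowest value of the surrogate variable, 0.70 and -0.42. For Tgfb1 the group mean was higher with D + Q (21.7 against 20.7 TPM) while the fitted change was negative, and without the surrogate variable the change was 0.034. Intervals this wide leave room for a change of either sign in each of these 6 genes.

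Among the LTBPs in TA, Ltbp4 had the most negative fitted change. D + Q-treated mice 1 to 4 had 48.0, 37.4, 24.2 and 46.5 TPM of it, against 44.5, 64.2, 43.1 and 60.5 TPM in vehicle-treated mice 1 to 4. The groups overlapped, and the vehicle values fell into a higher pair, replicates 2 and 4, and a lower pair, replicates 1 and 3. The log2 fold change was -0.55 (SE 0.22) with an unadjusted p of 0.0302 and an adjusted p of 0.999 by limma. Replicates 2 and 4 were the 2 vehicle-treated females, and all D + Q-treated mice were male. Without the surrogate variable the log2 fold change was -0.47, and with labelled sex in its place it was -0.21 (adjusted p = 1.00 by limma). In labelled males alone and with no surrogate variable, a setting added once the values were known, it was also -0.21. With the surrogate variable and all other mice it was -0.11 without D + Q-treated replicate 3 and -0.76 without vehicle-treated replicate 3, and no adjusted p-value was under 0.05. The other LTBPs had log2 fold changes of 0.21 (SE 0.16) for Ltbp1, -0.23 (SE 0.29) for Ltbp2 and -0.26 (SE 0.15) for Ltbp3, and each had an adjusted p of 0.999 by limma. For Ltbp3 the vehicle mean of 27.1 TPM includes replicate 2 at 34.3 TPM, and for Ltbp2 the vehicle mean of 2.08 TPM includes replicate 4 at 0.901 TPM.

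Ltbp4 was also higher in the females among the vehicle-treated hearts, at 99.1 and 81.5 TPM against 75.1 and 69.2 TPM in the males. These females also had the higher summed atrial marker TPM, 4260 and 2204 against 862 and 1083 in the males. In these hearts sex therefore cannot be told apart from atrial marker TPM. Over the 8 vehicle-treated mice, with tissue in the model, the female minus male log2 difference was 0.41 (SE 0.10), with an unadjusted p of 0.00317 and an adjusted p of 0.509 by limma. Of all 16893 genes in this fit 7.71% had an unadjusted p-value under 0.05, and Ltbp4 ranked 102. Of the 10 members Ltbp4 was the only one under that value, and for the other 9 the differences ran from -0.20 for Ltbp2 to 0.17 for Tgfb3. This fit was added after the data had been seen, and its part in the TA difference was not tested.

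**Figure D3:**
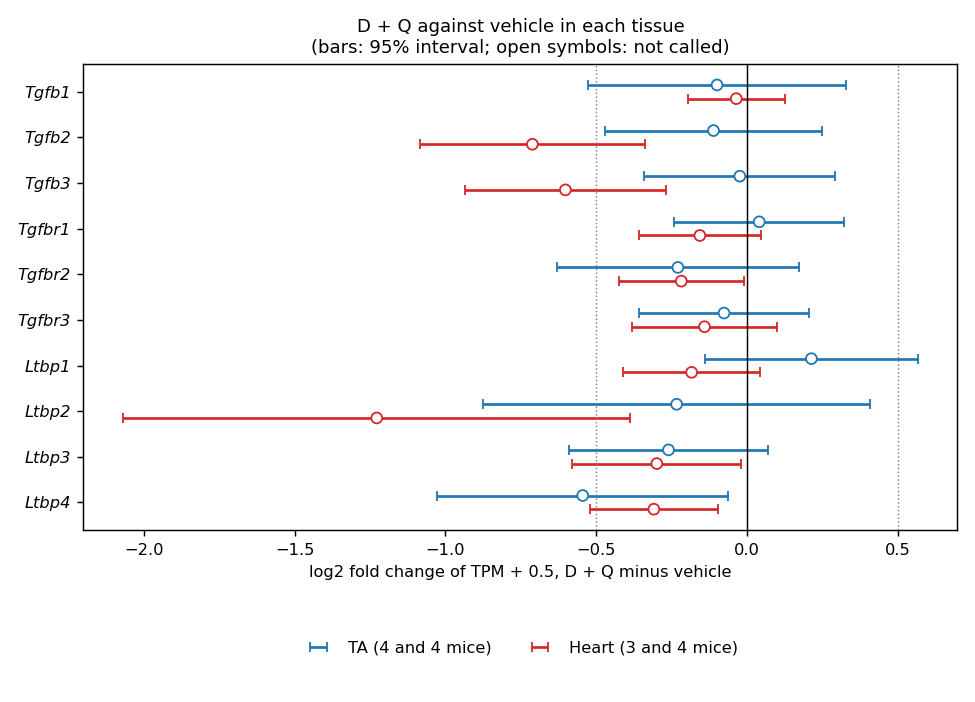
Fitted log2 fold change of TPM + 0.5, D + Q minus vehicle (horizontal axis), for each of the 10 genes in TA (blue, 4 and 4 mice) and heart (red, 3 and 4 mice); bars are 95% intervals from limma, the dotted lines mark 0.5 in either direction, and open symbols are genes that were not called. All 10 heart values are negative, from -0.04 for Tgfb1 to -1.23 for Ltbp2, and in TA the values run from -0.55 for Ltbp4 to 0.21 for Ltbp1.

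The second comparison asked the same of heart in older mice, with labelled sex in the model. No member was called, where 17 of 16132 genes were called higher (0.105%) and 34 lower (0.211%). The label of D + Q-treated replicate 3 went against its sex-linked transcripts. With sex read from expression in place of the label no member was called either, where 3 of 16132 genes were called higher and 22 lower. All 10 members had negative log2 fold changes, with a median of -0.26, while 50.5% of all genes were negative and the median over all genes was -0.0025. By limma 6 of the 10 had an unadjusted p-value under 0.05 with a negative change and 0 with a positive one, against 7.99% and 9.65% of all genes tested. The genes with the most negative changes were the ligands Tgfb2 and Tgfb3 and the matrix protein Ltbp2.

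Tgfb2, the ligand best known from heart valve and cushion development, was 11.8, 11.6, 9.12 and 7.62 TPM in vehicle-treated hearts 1 to 4. It was 6.51, 5.92 and 5.43 TPM in D + Q-treated hearts 1 to 3, all below the lowest vehicle-treated heart. The log2 fold change was -0.71 (SE 0.16; adjusted p = 0.110 by limma). It was -0.68 without D + Q-treated replicate 3, the mouse whose label and sex-linked transcripts disagreed, and stayed between -0.81 and -0.61 under every alternative. Tgfb3, the ligand known from fusion of the palate, was 14.0, 18.0, 12.0 and 11.8 TPM in vehicle-treated hearts 1 to 4. It was 9.63, 10.01 and 7.89 TPM in D + Q-treated hearts 1 to 3, again without overlap. The log2 fold change was -0.60 (SE 0.14; adjusted p = 0.115 by limma), and it was -0.56 without D + Q-treated replicate 3. Without vehicle-treated replicate 3 it was -0.75 with an adjusted p of 0.0453 by limma, the 1 setting in which a member was called in heart. In that setting 64 of 15870 genes were called higher and 72 lower. Tgfb1, the ligand carried by platelets and made by macrophages, was 18.4 to 20.4 TPM in vehicle-treated and 18.1 to 19.7 TPM in D + Q-treated hearts, with a log2 fold change of -0.04 (95% interval -0.20 to 0.12). Tgfb2 and Tgfb3 were the 2 members whose groups did not overlap, both lower with D + Q. Of all genes tested, 5.57% lay entirely lower and 9.63% entirely higher.

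Promoter sequences are shown for Tgfb2, the ligand with the most negative change in heart, and for Tgfb1, the ligand with the least. They run from 250 bases before to 50 bases after the RefSeq start of transcription on GRCm38.p6, on the strand of the gene. RefSeq promoters were matched for 8 of the 10 members, and Tgfb3 and Tgfbr3 had no entry. In Tgfb2 capitals mark an E-box, CACGTG, at -51. They also mark a TATA box at -31, whose letters are TATAAA. In Tgfb1 they mark the reverse strand of a GC box, GGGCGGGG, at -69. Both strands were searched for each motif.
Tgfb2 promoter (chr1:186705940-186706239, minus strand): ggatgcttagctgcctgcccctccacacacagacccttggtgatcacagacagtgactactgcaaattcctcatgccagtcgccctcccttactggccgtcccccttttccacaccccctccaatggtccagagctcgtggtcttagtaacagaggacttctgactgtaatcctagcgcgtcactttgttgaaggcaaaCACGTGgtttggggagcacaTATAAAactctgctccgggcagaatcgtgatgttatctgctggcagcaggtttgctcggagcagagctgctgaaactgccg
Tgfb1 promoter (chr7:25686752-25687051, plus strand): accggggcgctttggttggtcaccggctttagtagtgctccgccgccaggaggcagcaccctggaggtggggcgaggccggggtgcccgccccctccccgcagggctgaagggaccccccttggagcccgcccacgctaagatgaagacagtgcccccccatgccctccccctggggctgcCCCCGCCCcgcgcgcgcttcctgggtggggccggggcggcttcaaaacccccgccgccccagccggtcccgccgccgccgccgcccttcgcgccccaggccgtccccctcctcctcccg
The Tgfb2 window had a G + C content of 54.3% and the Tgfb1 window 77%. Among the promoters of the 8 matched members the E-box and the TATA box were found in Tgfb2 alone, and the GC box in Tgfb1, Tgfbr1 and Ltbp4. Of 32851 mouse promoters of this length 7.15% held the E-box, 13.62% the TATA box and 17.59% the GC box. These matches describe the letters in the window and say nothing of binding.

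The receptors in heart had smaller differences than Tgfb2 and Tgfb3. Tgfbr2, the receptor that binds ligand first, was 17.2, 22.1, 18.1 and 18.0 TPM in vehicle-treated and 16.5, 18.5 and 14.5 TPM in D + Q-treated hearts, which overlapped, with a log2 fold change of -0.22 (SE 0.09; adjusted p = 0.264 by limma). Tgfbr1, the receptor kinase that phosphorylates SMAD2 and SMAD3, had a log2 fold change of -0.16 (95% interval -0.36 to 0.04). For betaglycan, Tgfbr3, it was -0.14 (-0.38 to 0.10). Among the LTBPs in heart, Ltbp2 was 4.64, 5.50, 2.36 and 2.53 TPM in vehicle-treated hearts 1 to 4 and 1.05, 2.37 and 0.795 TPM in D + Q-treated hearts 1 to 3. D + Q-treated replicate 2 lay just above the lowest vehicle-treated heart. The log2 fold change of Ltbp2 was -1.23 (SE 0.36; adjusted p = 0.154 by limma), and it was -0.97 without D + Q-treated replicate 3. Ltbp4 was 65.1, 72.6 and 62.9 TPM in D + Q-treated hearts, with 1 of the 3 above the lowest vehicle-treated heart at 69.2 TPM. Its log2 fold change was -0.31 (SE 0.09; adjusted p = 0.154 by limma), and it was -0.38 without D + Q-treated replicate 3. Ltbp3, an LTBP known from skeletal and dental development, had a log2 fold change of -0.30 (SE 0.12; adjusted p = 0.256 by limma), and Ltbp1, the first described LTBP, of -0.18 (95% interval -0.41 to 0.04). Leaving out D + Q-treated replicate 3 changed no sign among the 10 members and left 3 of the 6 with an unadjusted p-value under 0.05, namely Tgfb2, Tgfb3 and Ltbp4. In that fit 1 of 15963 genes was called higher and 4 lower. The share of all its genes with an unadjusted p-value under 0.05 was not computed, so the 3 cannot be set against it.

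Other transcripts moved with the treatment groups in heart. The summed atrial marker TPM given above was higher in every vehicle-treated than in every D + Q-treated heart. Vehicle-treated replicate 2, with the highest atrial sum, was the highest heart for Tgfb3, Tgfbr1, Tgfbr2, Tgfbr3, Ltbp1, Ltbp2, Ltbp3, Ltbp4 and Tgfb1, and replicate 1, with the lowest atrial sum of the vehicle group, was the highest for Tgfb2. An atrial score was also taken, the mean log2(TPM + 0.5) of the same atrial markers. Over the heart libraries its correlation with treatment was -0.95, so a fit with both can hardly separate them. With the atrial score in place of sex, the log2 fold change of Tgfb2 was -0.65 and that of Tgfb3 -0.03. Tgfbr1, Tgfbr2, Tgfbr3 and Ltbp4 then turned positive, at 0.47, 0.42, 0.43 and 0.45, while the median over all genes moved to 0.36 in that fit, and 0 genes were called. Without vehicle-treated replicate 2 the change was -0.64 for Tgfb2 and -0.47 for Tgfb3, and 0 of 15794 genes were called. The summed TPM of 6 fibroblast markers (Pdgfra, Dcn, Col1a1, Lum, Pdgfrl and Tcf21) was 465 to 682 in vehicle-treated and 379 to 441 in D + Q-treated hearts, and that of the cardiac muscle markers was 14510 to 15844 and 17725 to 18927, neither with overlap. Dcn alone averaged 441 TPM in vehicle-treated and 333 TPM in D + Q-treated hearts, which is most of the fibroblast sum. None of the 6 fibroblast markers was at 0 in heart. With so few libraries, the atrial, fibroblast and cardiac muscle sums cannot be told apart from treatment in the differences of Tgfb2, Tgfb3, Ltbp2 and Ltbp4.

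**Figure D4:**
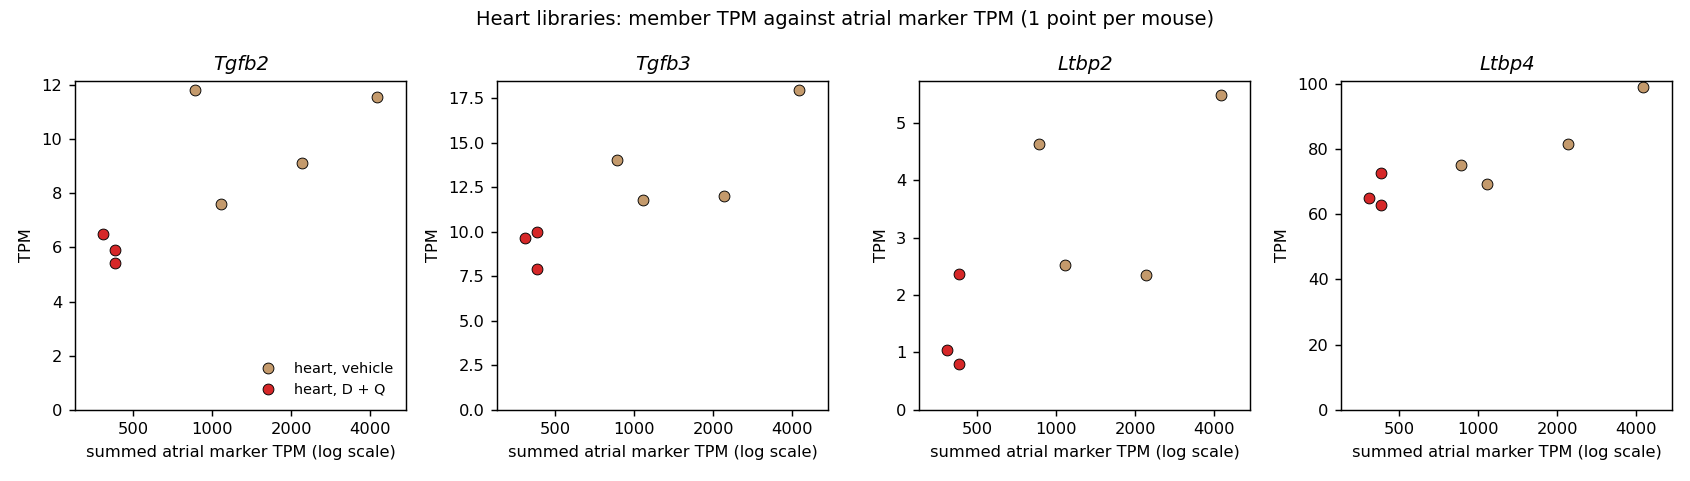
TPM of Tgfb2, Tgfb3, Ltbp2 and Ltbp4 (vertical axes, each starting at 0) against the summed TPM of 4 atrial markers (horizontal axis, log scale) in the 7 heart libraries, 1 point per mouse. The 3 D + Q-treated hearts lie together at atrial sums of 382 to 427, and the 4 vehicle-treated hearts spread from 862 to 4260, with the highest Tgfb3, Ltbp2 and Ltbp4 at 4260 and the highest Tgfb2 at 862.

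Whether the D + Q difference itself differed between heart and TA was tested as an interaction over all 15 mice. No member was called, where 3 of 17868 genes were called higher (0.0168%) and 8 lower (0.0448%). By limma 3 members had an unadjusted p-value under 0.05 with a more negative difference in heart and 0 with a more positive one, against 1.85% and 3.71% of all genes. They were Tgfb2 (-0.64, SE 0.24, adjusted p = 0.793), Tgfb3 (-0.52, SE 0.21, adjusted p = 0.831) and Ltbp1 (-0.41, SE 0.18, adjusted p = 0.883). For Ltbp4 the interaction was 0.20 (95% interval -0.42 to 0.81). The tissues also differed in age and in length of treatment, and these cannot be told apart from tissue. Sex was unbalanced too, and this fit held no term for it. The D + Q-treated TA mice were all male and the D + Q-treated hearts all female by sex-linked transcripts, while both vehicle groups held both sexes.

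The third comparison set the tissues against each other. In vehicle-treated mice 7 of the 10 members were called, 5 higher and 2 lower in TA, where 24% of the 16893 genes tested were called higher and 14.7% lower. Among the ligands, Tgfb2 was 15.7 to 20.5 TPM in TA and 7.62 to 11.8 TPM in heart (log2 difference 0.77, SE 0.16), and Tgfb3 was 21.7 to 30.4 TPM in TA and 11.8 to 18.0 TPM in heart (0.95, SE 0.16). Tgfb1 did not differ beyond its spread, with 15.02 to 24.9 TPM in TA and a log2 difference of 0.09 (95% interval -0.25 to 0.42). Both genes that differed were higher in every TA than in any heart. Of the receptors, Tgfbr1 had the largest difference, with 15.8 to 18.4 TPM in TA and 5.97 to 8.16 TPM in heart (log2 difference 1.21, SE 0.13). Tgfbr2 was also higher in TA (0.51, SE 0.12), at the edge of the minimum difference. Tgfbr3 had a log2 difference of -0.02 (95% interval -0.30 to 0.25). Of the LTBPs, Ltbp3 was higher in TA (0.68, SE 0.14) and Ltbp1 (-0.98, SE 0.13) and Ltbp4 (-0.62, SE 0.16) were lower. Ltbp1 was 6.31 to 8.89 TPM in TA and 14.8 to 16.4 TPM in heart, and Ltbp4 was 43.1 to 64.2 TPM in TA and 69.2 to 99.1 TPM in heart, both without overlap. Ltbp2 was not called (-0.72, adjusted p = 0.0865 by limma). All 7 called members had adjusted p-values by limma of at most 0.0091.

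In D + Q-treated mice 6 members were called between the tissues, where 21.2% of 16381 genes were called higher and 15.6% lower in TA. Tgfb2 (log2 difference 1.42, SE 0.17), Tgfb3 (1.47, SE 0.11), Tgfbr1 (1.43, SE 0.15) and Ltbp3 (0.72, SE 0.12) were higher in TA. Ltbp1 (-0.57, SE 0.13) and Ltbp4 (-0.81, SE 0.22) were lower in TA. Without D + Q-treated heart replicate 3 all 6 were still called, where 2825 of 15716 genes were called higher and 1788 lower in TA. With labelled sex in the model Ltbp1 and Ltbp4 were no longer called, at -0.36 (adjusted p = 0.194 by limma) and -0.73 (adjusted p = 0.180 by limma). The TA mice were all male, so this sex term rested on heart replicate 3 alone, the heart labelled male. By sex-linked transcripts all D + Q-treated hearts were female, so sex cannot be told apart from tissue here. Tgfbr2 had a log2 difference of 0.58 with an adjusted p of 0.0965 by limma. This comparison shares no mouse with the vehicle comparison, and Tgfb2, Tgfb3, Tgfbr1, Ltbp3, Ltbp1 and Ltbp4 were called in the same direction in both. The share of all genes called in the same direction in both was not computed. Both comparisons also set TA of 5 months against heart of 16 months, so age goes with tissue in each. The median log2 difference of all genes was 0.16 in vehicle-treated and 0.10 in D + Q-treated mice. When libraries were rescaled by median-of-ratios factors the median in vehicle-treated mice became 0.0046, and 2953 genes were then called higher and 3243 lower in TA in place of 4056 and 2484. Under that scaling Tgfbr2 in vehicle-treated mice was 0.33 and no longer called, Ltbp2 was -0.87 and called, Tgfb1 was -0.09, and the other 6 calls kept their direction.

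**Figure D5:**
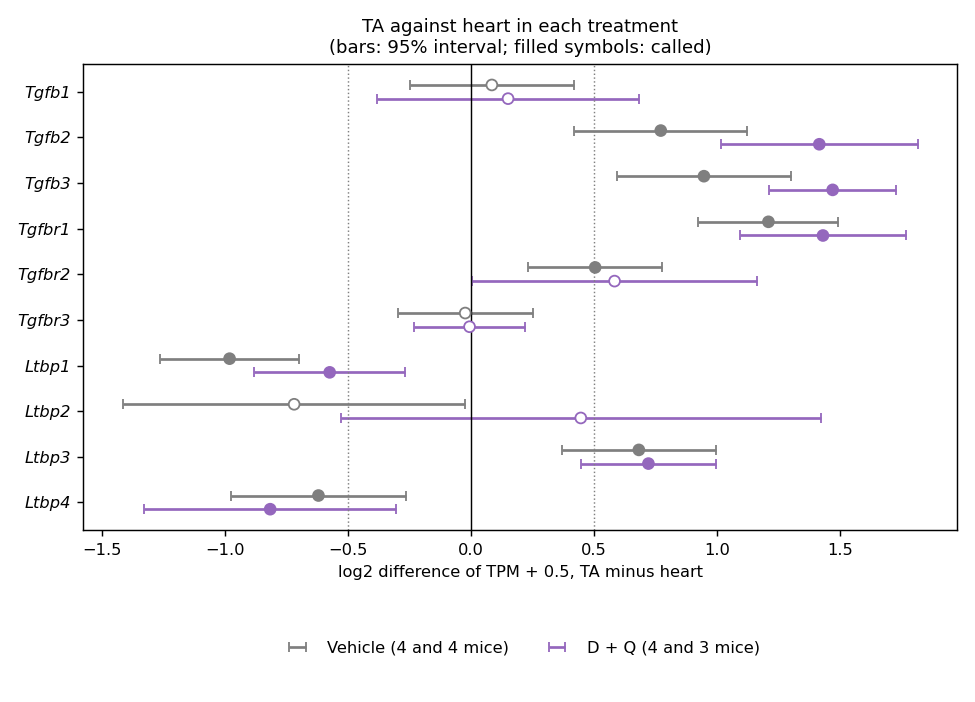
Fitted log2 difference of TPM + 0.5, TA minus heart (horizontal axis), for each of the 10 genes in vehicle-treated mice (grey, 4 and 4) and D + Q-treated mice (purple, 4 and 3); bars are 95% intervals from limma, the dotted lines mark 0.5 in either direction and filled symbols are called genes. Tgfb2, Tgfb3, Tgfbr1 and Ltbp3 lie to the right and Ltbp1 and Ltbp4 to the left of 0 in both treatments, and Tgfb1 and Tgfbr3 lie near 0.

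Another 53 genes of the pathway were followed by role: 14 activators, 8 microfibril genes, 8 co-receptors and ligand-binding proteins, 11 SMADs and regulators, and 15 targets, with 3 genes in 2 lists. In TA 51 of them were tested and 0 were called, and 40 had negative changes with a median of -0.20, where 66.4% of all genes were negative. By limma 3 had an unadjusted p-value under 0.05 with a negative and 0 with a positive change, against 2.36% and 0.638% of all genes. They were elastin (Eln, -0.47, SE 0.18), the matrix proteoglycan Bgn (-0.44, SE 0.17) and the protease inhibitor Timp1 (-0.59, SE 0.19), and each had an adjusted p of 0.999. For Timp1 the mean TPM was higher with D + Q (41.4 against 29.1), so the fitted change and the difference of the means had opposite signs. The 2 genes with the smallest p-values among the activators were Mmp2 (-0.29) and the plasminogen activator Plat (-0.33). Among the SMADs and regulators they were Smad2 (-0.29) and Ski (-0.25). In the other lists Fn1 (-0.33), Dcn (-0.23) and Col3a1 (-0.33) came next.

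In heart, 0 of the 53 pathway genes were called, 42 had negative changes with a median of -0.22, 20 had an unadjusted p-value under 0.05 with a negative and 4 with a positive change by limma, and 13 lay entirely lower and 4 entirely higher with D + Q. The shares of all genes in the same order were 7.99%, 9.65%, 5.57% and 9.63%. Without D + Q-treated replicate 3 the number called was also 0. The study, which tested counts with DESeq2, named the pathway genes Fmod and Ccn2 among those lower in D + Q-treated hearts. The lack of calls here is that of this fit on TPM. The targets had the most negative median of the 5 lists, with a value of -0.41 and 14 of 15 negative. Col3a1, a fibrillar collagen, had a mean of 59.6 TPM with D + Q and 76.7 TPM with vehicle (-0.40, SE 0.07, adjusted p = 0.0934 by limma). Of the binding proteins, Fmod (-1.25, adjusted p = 0.0934 by limma) and Dcn (-0.41, adjusted p = 0.190 by limma), which code for small proteoglycans that bind TGF-beta, had the smallest p-values. Of the microfibril genes they were Fn1 (-0.68, adjusted p = 0.112 by limma) and Fbln5 (-0.50, adjusted p = 0.149 by limma). Among the activators, Thbs1, thrombospondin 1, had a mean of 7.29 TPM with D + Q and 11.9 TPM with vehicle (-0.77, adjusted p = 0.114 by limma). Mmp14, a membrane protease, had 14.2 TPM with D + Q and 10.9 TPM with vehicle (0.33, adjusted p = 0.167 by limma). The SMADs and regulators had a median of -0.05, with Smurf1 at -0.22 and Map3k7 at 0.20. Dcn and Col1a1 are also among the fibroblast markers above, whose sum was lower in D + Q-treated hearts.

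Between the tissues the pathway genes that differed were mostly higher in TA. In vehicle-treated mice 22 of 53 were called higher and 6 lower in TA, and in D + Q-treated mice 21 higher and 4 lower, beside the 24% and 14.7%, and the 21.2% and 15.6%, of all genes. Cell type markers also differed between the tissues. In vehicle-treated mice the summed TPM of the fibroblast markers was 710 to 1126 in TA and 465 to 682 in heart, and that of 6 macrophage markers 272 to 497 and 148 to 247. The sum of 5 smooth muscle markers was 125 to 189 in TA and 288 to 457 in heart, and that of 5 endothelial markers 131 to 191 and 193 to 215. In D + Q-treated mice the same lists stood at 556 to 934 and 379 to 441, 341 to 678 and 121 to 194, 121 to 169 and 327 to 358, and 102 to 149 and 204 to 210. None of these 8 pairs of ranges overlapped. The fibroblast list was not uniform, since Tcf21 was under 0.5 TPM in every TA library of both treatments. In each heart group Tcf21 reached 0.5 TPM in at least 1 library. Col1a1 and Dcn are among the fibroblast markers and Acta2 is among the smooth muscle markers, and the part of these lists in the differences of the members and the pathway genes was not tested. All values that follow are log2 differences of called genes, TA minus heart. Of the targets in vehicle-treated mice, the collagen genes Col1a2 (2.92) and Col3a1 (2.68) had the smallest adjusted p-values among those higher in TA, while Acta2, smooth muscle actin (-2.03), and Ccn2 (-1.31) were higher in heart. Smad3, the receptor-activated SMAD, was higher in TA than in heart by 2.21 in vehicle-treated and 2.37 in D + Q-treated mice. Zfyve9, which encodes the SMAD anchor SARA, was higher by 1.19 and 1.09. Of the activators, Itgb6, whose product is part of an integrin that binds the RGD motif printed above, was higher in TA by 1.80 and 1.05. Mmp2 was higher by 1.74 and 1.84, while Itgb8, which encodes another chain of such integrins, was lower in TA of vehicle-treated mice (-0.66). Fn1 (2.83 and 3.21), Fbn1 (1.301 and 1.39), Fmod (4.57 and 5.14) and Aspn (1.41 and 1.51) were higher in TA, and the endothelial co-receptor Eng (-1.19 and -0.97) and the decoy receptor Bambi (-1.70 and -1.71) were higher in heart. Adamtsl2 in vehicle-treated (-0.88) and Fbn2 in D + Q-treated mice (-0.80) were also higher in heart. In D + Q-treated mice Col1a1 (3.33) and Col1a2 (3.02) had the smallest adjusted p-values of the targets higher in TA, and Acta2 was again higher in heart (-1.98).

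Positive correlation within groups was common among the members and among genes in general. With the group means removed, 44 of the 45 pairs of members (97.8%) had a positive Pearson correlation of log2(TPM + 0.5) over the 15 mice, with a median of 0.52. Over all pairs of the 14914 genes tested in both tissues 73.4% were positive, with a median of 0.23. These are descriptions over libraries whose composition differs, and no test was made. The closest pairs were Tgfb1 and Ltbp2 (0.78), Tgfbr2 and Ltbp4 (0.75) and Ltbp2 and Ltbp3 (0.74). The 1 negative value was between Ltbp1 and Ltbp4 (-0.09). Among these genes, the 3 whose deviations were most like those of Ltbp4 were Capzb (0.95), which encodes an actin capping protein, Ccdc9 (0.93) and Lrch2 (0.93).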

How the data were processed

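Total RNA of TA and heart was sequenced after an mRNA library kit (1 library per mouse), and the authors trimmed reads with Trim Galore 0.6.10, quantified them on GRCm39 with Salmon 1.10.3 and, after gene-level summary by tximport, deposited a TPM table, so no counts were used here. The annotation release is not given in the sources used here. Ensembl identifiers were matched to GENCODE M39, in which 56236 of 56980 were found. TPM keeps no depth, so no counting error can be given. The study tested counts with DESeq2, which TPM does not allow.

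Groups follow the labels. Genes that reached 0.5 TPM in 3 or more of the mice compared were fitted with limma 3.58.1 (R 4.3.3) on log2(TPM + 0.5), a scale that understates changes of low genes, with a trended prior variance and p-values adjusted over all genes tested. TA was fitted with 1 surrogate variable from an iteratively re-weighted procedure of 5 rounds, heart with labelled sex, the tissue comparisons and the interaction with no covariate. The code was tested on simulated data. The 10 members, the pathway lists and the marker lists were chosen with earlier results of these data known. All members were named, with the called pathway genes of smallest adjusted p (at most 2 per role and direction), in the treatment comparisons also the 2 of smallest p per role, and the 3 genes most like Ltbp4. The values of 1 pathway gene that this rule names are not reported here.

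Replicates are different mice, and the groups reuse the same replicate numbers for different animals. Alternatives were other pseudocounts (0.1 and 1), filters, scaling, covariates, a replicate block and leaving out each mouse. The fits on labelled males alone in TA, on females by expression in heart and of sex in vehicle-treated mice were added after the values were seen. Promoters came from RefSeq (GRCm38.p6) and coding stretches from GRCm39.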

Additional observations from a re-analysis of the deposited data

Results flagged for a closer look

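Of 30 groups of 4 mice, 1 for each of the 10 members in 3 of the groups, 2 held a mouse far from the other 3 relative to the range of the group, where chance gives about 1 in 20. In vehicle-treated TA, Ltbp2 was 0.901 TPM in replicate 4 and 2.33 to 2.62 TPM in the other 3 mice. Without that mouse the TA log2 fold change of Ltbp2 was -0.39 in place of -0.23. In the same group Ltbp3 was 34.3 TPM in replicate 2 and 24.2 to 25.0 TPM in the other 3. Without replicate 2 the TA log2 fold change of Ltbp3 was -0.15 in place of -0.26. Neither gene was called with or without these mice.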

How the results depend on the processing

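Of 950 member values recomputed under the alternatives, 892 kept their direction and their side of the threshold, 41 changed sign, 13 lost a call and 4 gained one, and the cause of these changes was not tested. No member was called in TA under any setting or in the interaction. In heart the number of members called ran from 0 to 1 and of pathway genes from 0 to 4 when each mouse was left out, in both cases highest without vehicle-treated replicate 3 (Tgfb3, and Dcn, Itgb6, Col1a2 and Tgfbi, named after their values were seen), and 1 pathway gene was called with no covariate. Over all genes, 64 of 15870 were called higher and 72 lower without that mouse, and 21 of 16132 higher and 33 lower with no covariate.

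Sign changes were of small values or came with the atrial score. In TA, Tgfb1 was 0.034 without the surrogate variable and 0.034 with a replicate block in its place, Tgfb2 was 0.022 and Tgfb3 0.037 with labelled sex in its place and also with labelled males only, and Tgfb3 was 0.063 and Tgfbr3 0.010 with median-of-ratios scaling. When each mouse was left out, TA values ran from -0.23 to 0.015 for Tgfb1, -0.24 to 0.11 for Tgfb2 and -0.17 to 0.035 for Tgfb3. In heart with the atrial score as covariate Tgfb1 was 0.080, Tgfbr1 0.47, Tgfbr2 0.42, Tgfbr3 0.43 and Ltbp4 0.45, and with each mouse left out Tgfb1 ran from -0.072 to 0.00074. Between vehicle-treated tissues Tgfb1 was -0.092 with median-of-ratios scaling and ran from -0.0071 to 0.23, and Tgfbr3 from -0.089 to 0.052, with each mouse left out. Between D + Q-treated tissues Tgfbr3 was 0.13 with labelled sex as covariate and ran from -0.073 to 0.074, and Tgfb1 from -0.028 to 0.35. In the interaction Ltbp4 was -0.030 with labelled sex and ran from -0.014 to 0.31, Tgfb1 from -0.26 to 0.11, Tgfbr2 from -0.27 to 0.11, Tgfbr3 from -0.096 to 0.057 and Ltbp3 from -0.15 to 0.053.

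Tgfbr2 in vehicle-treated tissues fell under the minimum difference in 5 of the 8 fits that left out a mouse, at 0.46 to 0.49, and with a pseudocount of 1. Between D + Q-treated tissues Ltbp4 was not called without D + Q-treated heart replicate 1 (adjusted p = 0.0535 by limma) or replicate 2 (0.0656), and Ltbp1 not without replicate 2 (-0.48), while Tgfbr2 was called without D + Q-treated TA replicate 3 (0.78). Same-numbered mice did not deviate together, with correlations of -0.30 to 0.04 between the TA groups and -0.02 to 0.05 between the heart groups. No pairing by replicate number was seen, though so few correlations cannot exclude it. With a replicate block 0 members were called in TA, 0 in heart, 8 between vehicle-treated tissues (Ltbp2 added), 5 between D + Q-treated tissues (Ltbp1 lost) and 0 in the interaction. Between vehicle-treated tissues the block called 4104 of 16893 genes higher and 2510 lower in TA. Between D + Q-treated tissues it called 2971 of 16381 higher and 2377 lower. Over all genes the heart calls went from 17 higher and 34 lower to 0 and 4 with the block and to 64 and 72 without vehicle-treated replicate 3. They were 2 and 11 without the trended variance, 3 and 22 with sex read from expression, 3 and 13 in females alone, and 0 and 0 with no filter on low TPM or with the atrial score. Between D + Q-treated tissues labelled sex moved the calls from 3472 higher and 2556 lower to 2569 and 1514.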

Other observations

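The summed TPM of further marker lists overlapped between D + Q-treated and vehicle-treated mice of the same tissue. For 6 macrophage markers it was 341 to 678 in D + Q-treated and 272 to 497 in vehicle-treated TA, and 121 to 194 and 148 to 247 in heart. For 5 endothelial markers it was 102 to 149 and 131 to 191 in TA and 204 to 210 and 193 to 215 in heart, and for 5 smooth muscle markers 121 to 169 and 125 to 189 in TA and 327 to 358 and 288 to 457 in heart. The 6 fibroblast markers summed to 556 to 934 in D + Q-treated and 710 to 1126 in vehicle-treated TA. For 5 platelet markers the sum was 17.0 to 63.8 and 17.1 to 39.9 in TA and 18.9 to 51.3 and 38.2 to 87.0 in heart. The 5 T cell markers summed to 0.483 to 1.81 and 1.01 to 2.30 in TA and 1.33 to 4.49 and 2.64 to 5.22 in heart, and Cd3e, Cd3g and Trac were under 0.5 TPM in all 8 TA libraries. The 4 atrial markers summed to 38.1 to 84.9 in TA, with Myl7 at 0 in all 8.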
